A study of Homo sapiens with 8 samples.

Results

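The RNA of 10 genes that serve as feedback regulators and transcriptional outputs of ERK signalling, and the acetylation of histone H3 at lysine 27 (H3K27ac) around them, were compared between naive H3122 cells and 3 derived lines resistant to ALK inhibitors. The genes were named by their role in the pathway: the ERK phosphatases DUSP4, DUSP5 and DUSP6, the Sprouty genes SPRY1, SPRY2 and SPRY4, the Spred genes SPRED1 and SPRED2, and the ETS factors ETV4 and ETV5. All 10 were among the 43869 genes with RNA values, and all 10 were among the 12701 expressed genes, defined as those that reached log2(25), or 4.64, in at least 1 library. They were paired with 129 of 126470 H3K27ac peaks, a pair being a gene and a peak at most 20 kb apart.

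H3122 is a lung adenocarcinoma cell line that carries the EML4-ALK fusion and depends on the fused kinase for growth. The naive cells had not been selected in an inhibitor. The lines erCriz0, erAlec0 and erLor0 were populations grown out of the naive line under rising concentrations, and were resistant to 0.5 μM crizotinib, 2 μM alectinib and 2 μM lorlatinib. RNA was taken after 48 h without inhibitor, and the labels of the ChIP samples state that the cells were kept in DMSO vehicle. There was 1 RNA library and 1 H3K27ac library per line, all of H3122 cells, so that no value below has a replicate error, no test between lines could be made, and each difference is a difference between 2 libraries. Levels are given as rlog, a log2 scale on which differences of features with few reads are pulled toward 0, and a change is the level in a resistant line less the level in naive cells, both as rlog. A change of at least 1, up or down, is called a rise or a fall, and smaller differences are given as values. The depth of the libraries is unknown, and rlog values are not divided by gene length, so levels are compared between lines and not between genes.

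The kinase ERK is the last step of the RAS, RAF and MEK cascade that receptor tyrosine kinases, ALK among them, switch on. Active ERK raises the transcription of several of its own inhibitors, which is why their RNA is widely read as a measure of the pathway's recent activity. DUSP proteins remove the activating phosphates from ERK, Sprouty and Spred proteins act upstream on receptor signalling, RAS and RAF, and ETV4 and ETV5 are transcription factors of the PEA3 group that carry the signal to further genes. H3K27ac marks active promoters and enhancers, and RNA reports the steady amount of transcript, so both were examined for the same genes.

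The cells carried the RNA of their labelled type. Of 8 lung epithelial markers 6 were expressed, and the surfactant and aspartic protease genes SFTPB and NAPSA were below the minimum, at 1.64 and 3.53 in naive cells. The summed levels of the 8 markers on the log2 scale were 15.7 in naive cells, 15.7 in erCriz0, 16.1 in erAlec0 and 15.9 in erLor0. Of 8 leukocyte, endothelial and fibroblast markers 2 were expressed, COL1A1 and CDH5, and PTPRC, the pan-leukocyte marker, was listed at 0 in all libraries. CDH5, an endothelial cadherin, was at 4.10 in naive cells, and it was nearly level in erCriz0 (0.18) and rose in erAlec0 (1.68) and erLor0 (1.54). The summed levels of this list in naive, erCriz0, erAlec0 and erLor0 cells were 9.58, 9.79, 10.1 and 10.2, so they were higher in the 2 lines in which DUSP5 RNA was highest, and their part in the results was not tested. Most of each sum was the fibroblast marker COL1A1, at 9.49, 9.71, 9.99 and 10.08 in the same order.

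The RNA of the ERK phosphatases DUSP5 and DUSP6 was higher in all 3 resistant lines than in naive cells, and most so in erAlec0. They were the 2 genes of the 10 that passed the limit of 1, both in erAlec0 only, where 2.46% of expressed genes rose and 2.07% fell. No member rose or fell in erCriz0, where 2.65% of expressed genes rose and 1.65% fell, or in erLor0, where 1.10% rose and 0.740% fell. The median RNA change of the 10 genes in erCriz0, erAlec0 and erLor0 came to -0.03, 0.12 and 0.12, beside -0.02, 0.00 and -0.00 over all expressed genes. The erCriz0 median has no settled sign, since it was 0.03 after centring the libraries on expressed genes. RNA was above naive for 5, 8 and 7 members in erCriz0, erAlec0 and erLor0. The group did not move as one, and its larger changes were those of single genes.

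**Figure D1:**
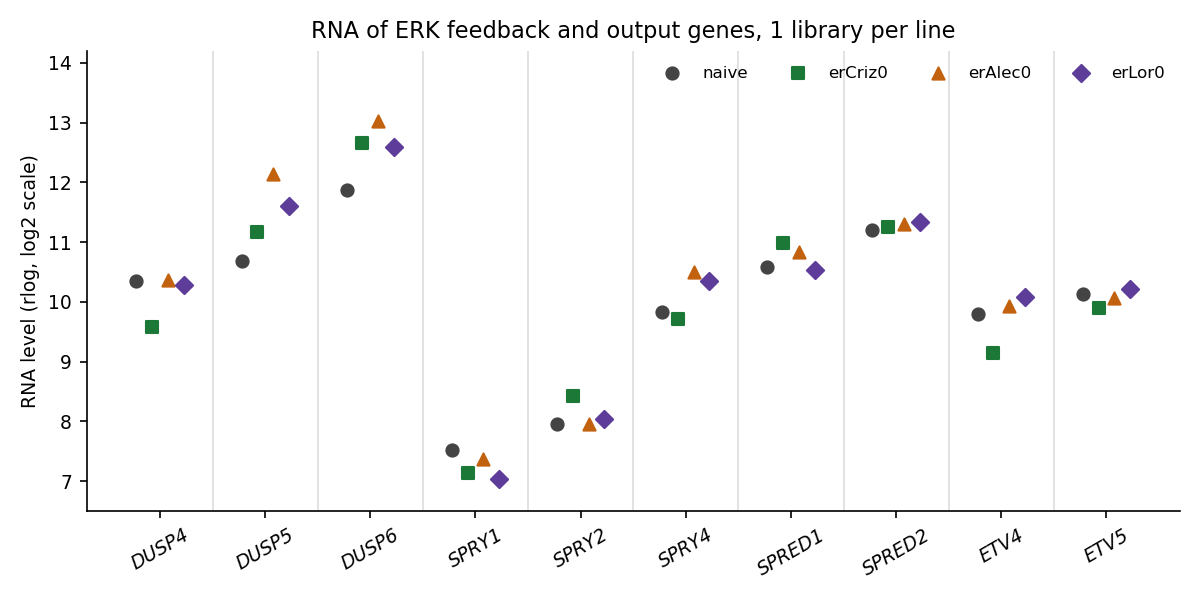
RNA level (rlog, log2 scale, vertical axis) of the 10 genes in naive, erCriz0, erAlec0 and erLor0 cells, each point being 1 library. DUSP5 and DUSP6 sit above naive in all 3 resistant lines, with erAlec0 highest at 12.13 and 13.03, while DUSP4 and ETV4 are lowest in erCriz0.

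DUSP5 (ENSG00000138166.6, chr10:110497907-110511533, plus strand, hg38) encodes a nuclear phosphatase specific for ERK. Its RNA was 10.69 in naive cells, 11.17 in erCriz0, 12.13 in erAlec0 and 11.61 in erLor0. Naive cells were lowest and erAlec0 highest, with a change of 1.45, or 2.73-fold on the rlog scale. The change was 0.48 in erCriz0 and 0.92 in erLor0. In erAlec0 the change was matched or exceeded by 98 of the 12701 expressed genes, DUSP5 included, and in erLor0 by 187. Set against each other rather than against naive cells, erAlec0 exceeded erCriz0 by 0.97 and erLor0 was below erAlec0 by a change of -0.53.

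DUSP6 (ENSG00000139318.8, chr12:89347235-89352501, minus strand) encodes the cytoplasmic ERK phosphatase and is among the most used readouts of ERK activity. Its RNA was 11.86 in naive cells, 12.65 in erCriz0, 13.03 in erAlec0 and 12.58 in erLor0. The changes were 0.79, 1.17 and 0.72, so that erAlec0 reached 2.24-fold and the other two lines stayed below the limit. An equal or higher change was found for 551, 182 and 375 expressed genes in the 3 lines. DUSP4 (ENSG00000120875.9), a nuclear phosphatase that also acts on other MAP kinases, did not follow them. Its RNA was 10.34 in naive cells, 9.58 in erCriz0, 10.37 in erAlec0 and 10.28 in erLor0, which puts erCriz0 lower than the other 3 by at least 0.70.

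The Sprouty genes differed among themselves. SPRY4 (ENSG00000187678.9, chr5:142310427-142326455, minus strand) was at 9.83 in naive cells, 9.71 in erCriz0, 10.50 in erAlec0 and 10.35 in erLor0. Its order resembled that of DUSP5 in erAlec0 and erLor0, with changes of 0.67 and 0.53, but erCriz0 was slightly below naive at -0.12. SPRY1 (ENSG00000164056.11) was highest in naive cells, at 7.52, with 7.13, 7.37 and 7.05 in erCriz0, erAlec0 and erLor0. SPRY2 (ENSG00000136158.12) was at 7.95 in naive cells, 8.42 in erCriz0, 7.95 in erAlec0 and 8.04 in erLor0, so only erCriz0 stood off, by 0.47. An antisense gene, SPRY4-AS1, overlaps SPRY4, and since the strand setting of the read counting was not given in the sources used here, reads of the 2 genes may not have been told apart. SPRY4-AS1 was itself expressed, with changes of 0.23, 0.49 and 0.15 in erCriz0, erAlec0 and erLor0.

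SPRED1 and SPRED2, membrane-bound inhibitors that bring the RAS-inactivating protein neurofibromin to RAS, changed little. SPRED1 (ENSG00000166068.13) was at 10.59 in naive cells, 10.98 in erCriz0, 10.84 in erAlec0 and 10.53 in erLor0. SPRED2 (ENSG00000198369.10) was at 11.20, 11.26, 11.30 and 11.33 in the same order, which was the narrowest span of the 10 genes, 0.14. The ETS factors showed the erCriz0 line low. ETV4 (ENSG00000175832.13, chr17:43527844-43579620, minus strand) was at 9.79 in naive cells, 9.15 in erCriz0, 9.94 in erAlec0 and 10.08 in erLor0. The erLor0 line exceeded erCriz0 by 0.93. ETV5 (ENSG00000244405.8, chr3:186046314-186110318, minus strand) was at 10.13, 9.90, 10.06 and 10.22, a span of 0.32. ETV4 is overlapped by DHX8 on the opposite strand, whose changes were 0.10, 0.03 and -0.14, and ETV5 by DGKG and ETV5-AS1, neither of which was expressed.

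H3K27ac was lower than in naive cells at most peaks around these genes, also around DUSP6 in each line and around DUSP5 and SPRY4 in erAlec0 and erLor0, where their RNA was higher than in naive cells. The 129 paired peaks had median changes of -0.30, -0.55 and -0.53 in erCriz0, erAlec0 and erLor0, while the median over all peaks was 0.00 in each line. In erCriz0 17 of the 129 peaks fell (13.2%) and 5 rose, where 5.94% of all peaks fell and 7.00% rose. In erAlec0 32 fell (24.8%) and 3 rose, where 9.41% of all peaks fell and 14.1% rose. In erLor0 26 fell (20.2%) and 1 rose, where 8.82% of all peaks fell and 7.45% rose. The falls were thus more frequent over the 129 peaks as a set than over all peaks in each line, and the rises less frequent. The falls were spread unevenly among the genes. In erCriz0 DUSP6, SPRY4 and ETV4 held 8, 4 and 3 of the 17 falls. SPRY2 and SPRED1 held 1 each there, and the remaining genes had none. DUSP6, SPRY4 and ETV4 held 10, 8 and 6 of the 32 falls in erAlec0. In erLor0 they held 10, 5 and 2 of the 26. The excess of falls is therefore not shown for each gene. Peaks below naive made up 64.3% of the 129 in erCriz0, 78.3% in erAlec0 and 76.0% in erLor0, beside 49.3%, 48.7% and 49.9% of all peaks. Taking the peaks paired with exactly 1 gene gave medians of -0.13, -0.051 and -0.048, and of these peaks 29 belong to SPRED2 and 0 to DUSP6, ETV4 or ETV5. Taking peaks at most 5 kb from the gene gave -0.14, -0.37 and -0.42, with 5, 13 and 10 that fell. The share of all peaks within 5 kb of a gene that fell is not given here. These counts therefore do not show whether falls were in excess near the genes. Peaks of 1 gene lie side by side and share a chromosome segment, so they are not independent of each other.

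The same peaks were low in several lines. Of the 129, 72 (55.8%) were below naive in all 3 lines, against 25.4% of all peaks, and 12 (9.30%) fell in all 3, against 1.76%. A rise in all 3 lines was rare over all peaks, at 0.289%, and was found at 0 of the 129. The 3 comparisons share the naive library, which by itself ties their directions together. Of the 12 peaks that fell in all 3 lines, 7 belonged to DUSP6, 3 to SPRY4, 1 to SPRED1 and 1 to ETV4. The paired peaks were somewhat stronger than the average peak, with a median naive level of 4.87 against 4.12 and a median length of 576 bp against 522 bp.

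**Figure D2:**
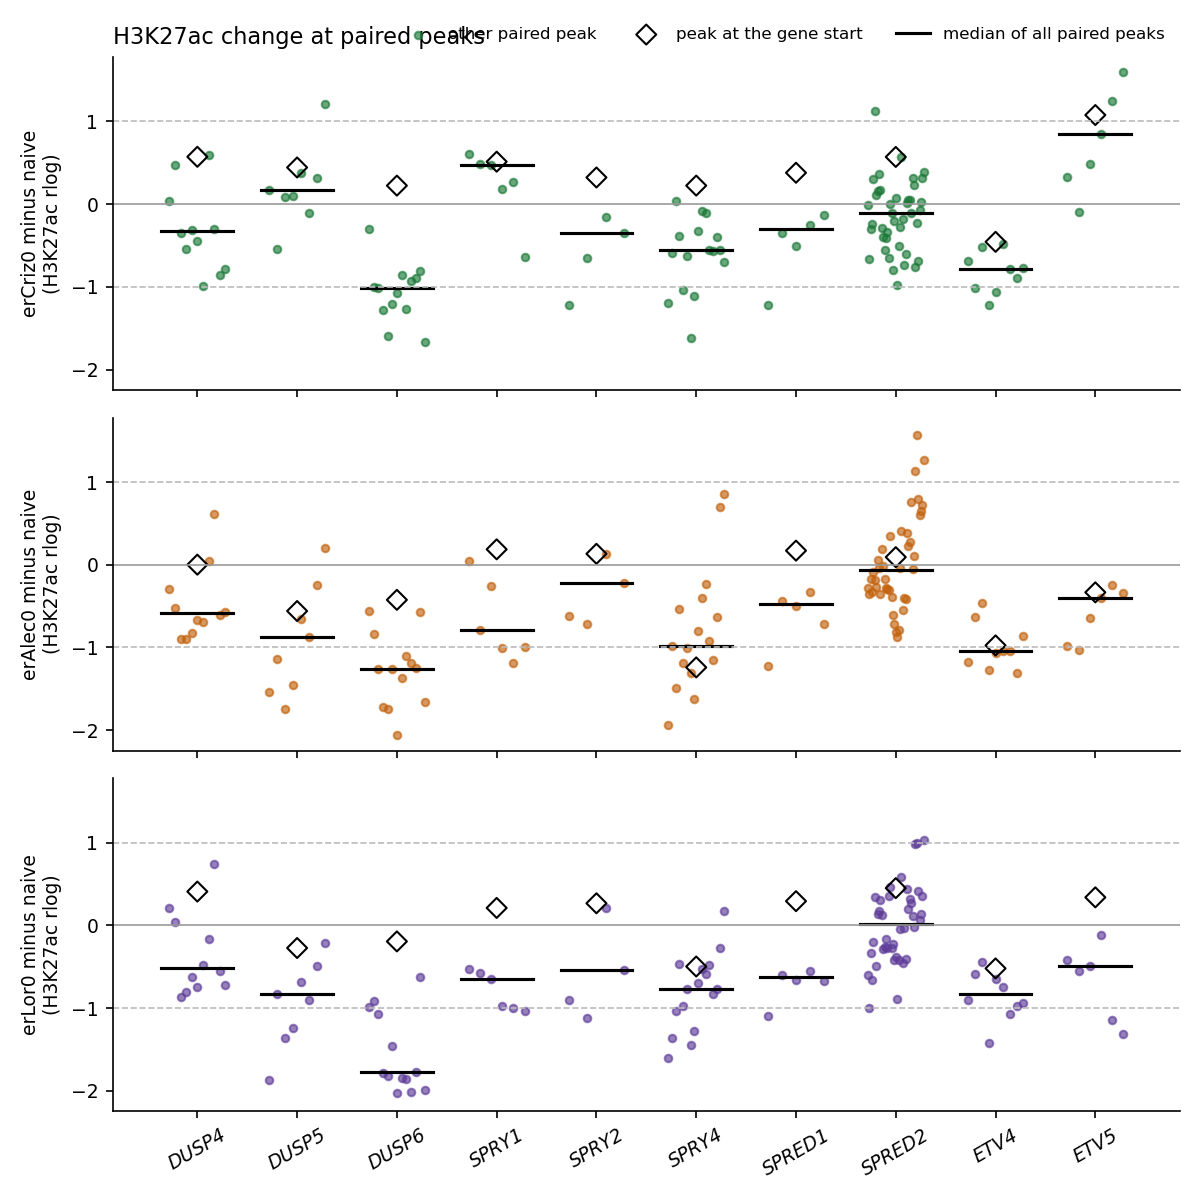
H3K27ac change from naive (rlog, vertical axis) at every paired peak of the 10 genes in erCriz0, erAlec0 and erLor0, with the peak at the gene start as an open diamond, the gene's median as a bar and dashed lines at 1 and -1. The DUSP6 medians are -1.01, -1.26 and -1.78 while its start peak stays between -0.42 and 0.22, the ETV5 peaks lie mostly above naive in erCriz0 only, and the SPRED2 peaks spread to both sides.

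Peaks were also summarised by gene. A median at or below -0.5, a limit chosen after the values were seen, was reached in erCriz0 by DUSP6, SPRY4 and ETV4, 3 of the 10, where 10.5% of the 8758 expressed genes with at least 5 peaks reached it. In erAlec0 it was reached by 6, DUSP4, DUSP5, DUSP6, SPRY1, SPRY4 and ETV4, where 17.0% of genes did. In erLor0 it was reached by 8, all but SPRED2 and ETV5, where 11.4% did. The median was below 0 for 7, 10 and 9 members in the 3 lines, and for 48.1%, 52.3% and 45.5% of the 8758 genes. RNA above naive together with a peak median below naive was found for 4, 8 and 6 of the 10 members in erCriz0, erAlec0 and erLor0, and for 19.7%, 27.3% and 22.1% of the 8758 genes. These counts and shares rest on sign alone, however small the change. In erAlec0 they include RNA changes of 0.0014 for SPRY2, 0.02 for DUSP4 and 0.10 for SPRED2. In erCriz0 they include 0.06 for SPRED2, and in erLor0 0.09 for SPRY2 and 0.10 for ETV5.

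**Figure D3:**
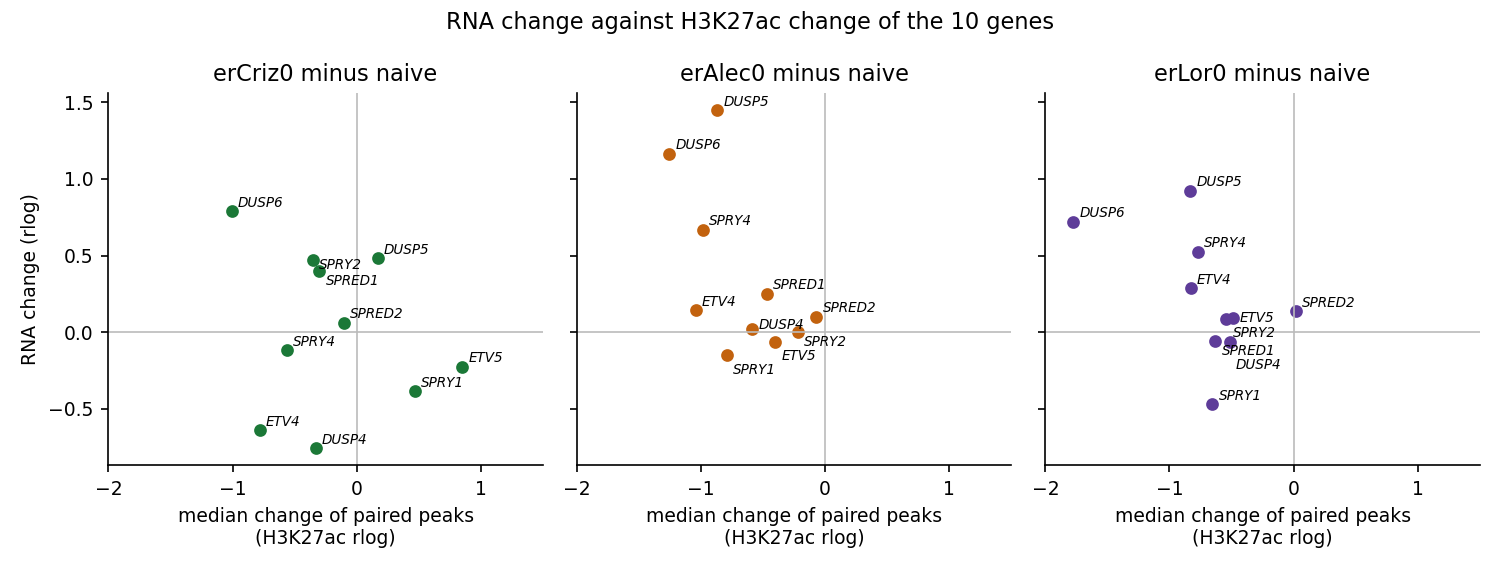
RNA change (vertical axis, rlog) against the median H3K27ac change of the paired peaks (horizontal axis, rlog) for the 10 genes, 1 panel per resistant line, each change being line minus naive. In erAlec0 and erLor0 DUSP5, DUSP6 and SPRY4 sit in the upper left, with higher RNA and lower acetylation, and in erCriz0 DUSP6 lies furthest into that corner while ETV5 and SPRY1 sit in the lower right.

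DUSP6 had the largest loss. Of its 14 peaks 8 fell in erCriz0, 10 in erAlec0 and 10 in erLor0, none rose, and 13 were below naive in all 3 lines. The gene medians were -1.01, -1.26 and -1.78. Among the 8758 genes with at least 5 peaks the erLor0 median of DUSP6 was the lowest, and 34 genes in erAlec0 and 71 in erCriz0 had a median as low or lower, DUSP6 included. The broad peak over the gene itself behaved differently. It spans 17906 bp (chr12:89342569-89360474), covers the start of the gene, and was at 12.25 in naive cells, 12.48 in erCriz0, 11.83 in erAlec0 and 12.06 in erLor0. Its changes of 0.22, -0.42 and -0.19 were the highest of the 14 in each line.

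The DUSP6 losses lay on both sides of that broad peak. Downstream of the gene the peak at chr12:89339240-89342455 was at 7.48 in naive cells, 6.41 in erCriz0, 5.42 in erAlec0 and 5.45 in erLor0. Its changes of -2.06 and -2.03 in erAlec0 and erLor0 were the lowest of all 129 peaks. The most distant downstream peak, at chr12:89325608-89329772, was at 7.82, 6.15, 6.16 and 5.84 in the same order. It held the largest fall of erCriz0, -1.67, and its changes in erAlec0 and erLor0 were -1.66 and -1.99. Upstream, the peak at chr12:89362819-89365757 was at 7.42 in naive cells and at 6.14, 5.70 and 5.64 in erCriz0, erAlec0 and erLor0. The resistant lines were thus below naive cells at all 3 of these intervals, which are intergenic or within a long noncoding gene that was not expressed.

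The chromosome segment around DUSP6 was also below naive. The other 425 peaks within 5 Mb of the gene had medians of -0.31, -0.50 and -0.62 in erCriz0, erAlec0 and erLor0, and the DUSP6 medians were below them by a further -0.70, -0.76 and -1.16. No such shift was seen around DUSP5, whose surrounding medians were 0.02, 0.26 and 0.06 over 375 peaks, or around ETV4, where they were 0.09, -0.00 and 0.00 over 1000 peaks. Smaller shifts below naive in erAlec0 and erLor0 lay around SPRY4 (0.04, -0.32 and -0.17) and SPRY1 (0.00, -0.11 and -0.26 over 253 peaks). Around DUSP4, SPRY2, SPRED1, SPRED2 and ETV5 the medians ran from -0.11 to 0.31. The part of copy number or of other broad differences in the DUSP6 values was not tested.

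The 250 bases before the start of DUSP6 (chr12:89352502-89352751, minus strand, from RefSeq on GRCh38.p14) lie inside the broad peak and are shown for that reason. Acetylation was measured over the whole broad peak and not for these bases.
DUSP6 promoter: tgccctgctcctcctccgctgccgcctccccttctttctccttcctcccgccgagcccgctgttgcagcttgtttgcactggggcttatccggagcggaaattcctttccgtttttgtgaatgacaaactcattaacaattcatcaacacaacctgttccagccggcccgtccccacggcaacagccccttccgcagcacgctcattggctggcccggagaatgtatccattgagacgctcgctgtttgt

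Short motifs linked to ERK signalling were searched on both strands, AP-1, the site of FOS and JUN proteins, as TGANTCA, ETS as CCGGAAG and CRE as TGACGTCA. In the 250 bases before the start none of them was found in the 6 members that the sequence table holds, DUSP6, SPRY1, SPRY2, SPRY4, SPRED1 and SPRED2. The start in that table is the canonical one for 5 of them, and for SPRY4 it lies 774 bp further into the gene, so its 250 bases are downstream of the start used elsewhere here. Over all 27305 promoters of that length the shares with a match were 6.60%, 8.82% and 1.77%. In the central 300 bases of the peaks, or the whole peak where it is shorter, AP-1 was found in 13 of the 129 (10.1%) against 9.21% of all peaks, ETS in 1 (0.775%) against 2.05%, and CRE in 0 against 0.249%. Of the 41 member peaks that fell in at least 1 line, 2 held the AP-1 letters (4.88%), and of the other 88 peaks 11 did (12.5%). The sequence between the centre and the ends of a peak was not included in these shares. Over its full 17906 bp the broad DUSP6 peak held 4 AP-1 and 2 ETS matches, 1 of the ETS matches within its central 300 bases. A long stretch holds such short letters more often, and no background for whole peaks was computed. These counts therefore cannot show an excess.

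DUSP5 showed its losses in erAlec0 and erLor0 and not in erCriz0. Its 9 peaks had medians of 0.17, -0.87 and -0.83 in erCriz0, erAlec0 and erLor0, and 0, 4 and 3 of them fell. The peak at chr10:110498094-110501947 begins 187 bp past the start and runs into the gene body. It was at 8.11 in naive cells, 8.20 in erCriz0, 6.37 in erAlec0 and 6.75 in erLor0. The peak upstream of the gene at chr10:110486684-110489421, within the noncoding gene DUSP5-DT, was at 7.45, 7.62, 5.91 and 5.58 in the same order. At both peaks naive and erCriz0 cells lay close together and the other two lines more than 1 below. The peak nearest to the start ends 63 bp before it (chr10:110495933-110497844) and changed by 0.44, -0.56 and -0.27. One distal peak, at chr10:110530254-110530720, rose by 1.21 in erCriz0 and differed by 0.20 and -0.21 in the other lines. The DUSP5 RNA was highest in the 2 lines in which these peaks were lowest.

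The centre of the upstream DUSP5 peak (chr10:110487903-110488202, plus strand, hg38) is shown as the element of this gene with the largest fall in erLor0, -1.87. None of the 3 motifs was found in this centre. The whole peak held 1 AP-1 match, a count with no background for whole peaks beside it.
DUSP5 upstream peak: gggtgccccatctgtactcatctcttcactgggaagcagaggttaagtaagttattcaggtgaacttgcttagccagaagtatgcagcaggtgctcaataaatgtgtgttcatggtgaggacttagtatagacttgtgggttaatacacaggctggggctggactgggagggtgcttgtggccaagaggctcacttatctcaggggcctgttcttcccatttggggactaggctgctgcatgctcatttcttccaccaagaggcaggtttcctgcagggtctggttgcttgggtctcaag

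**Figure D4:**
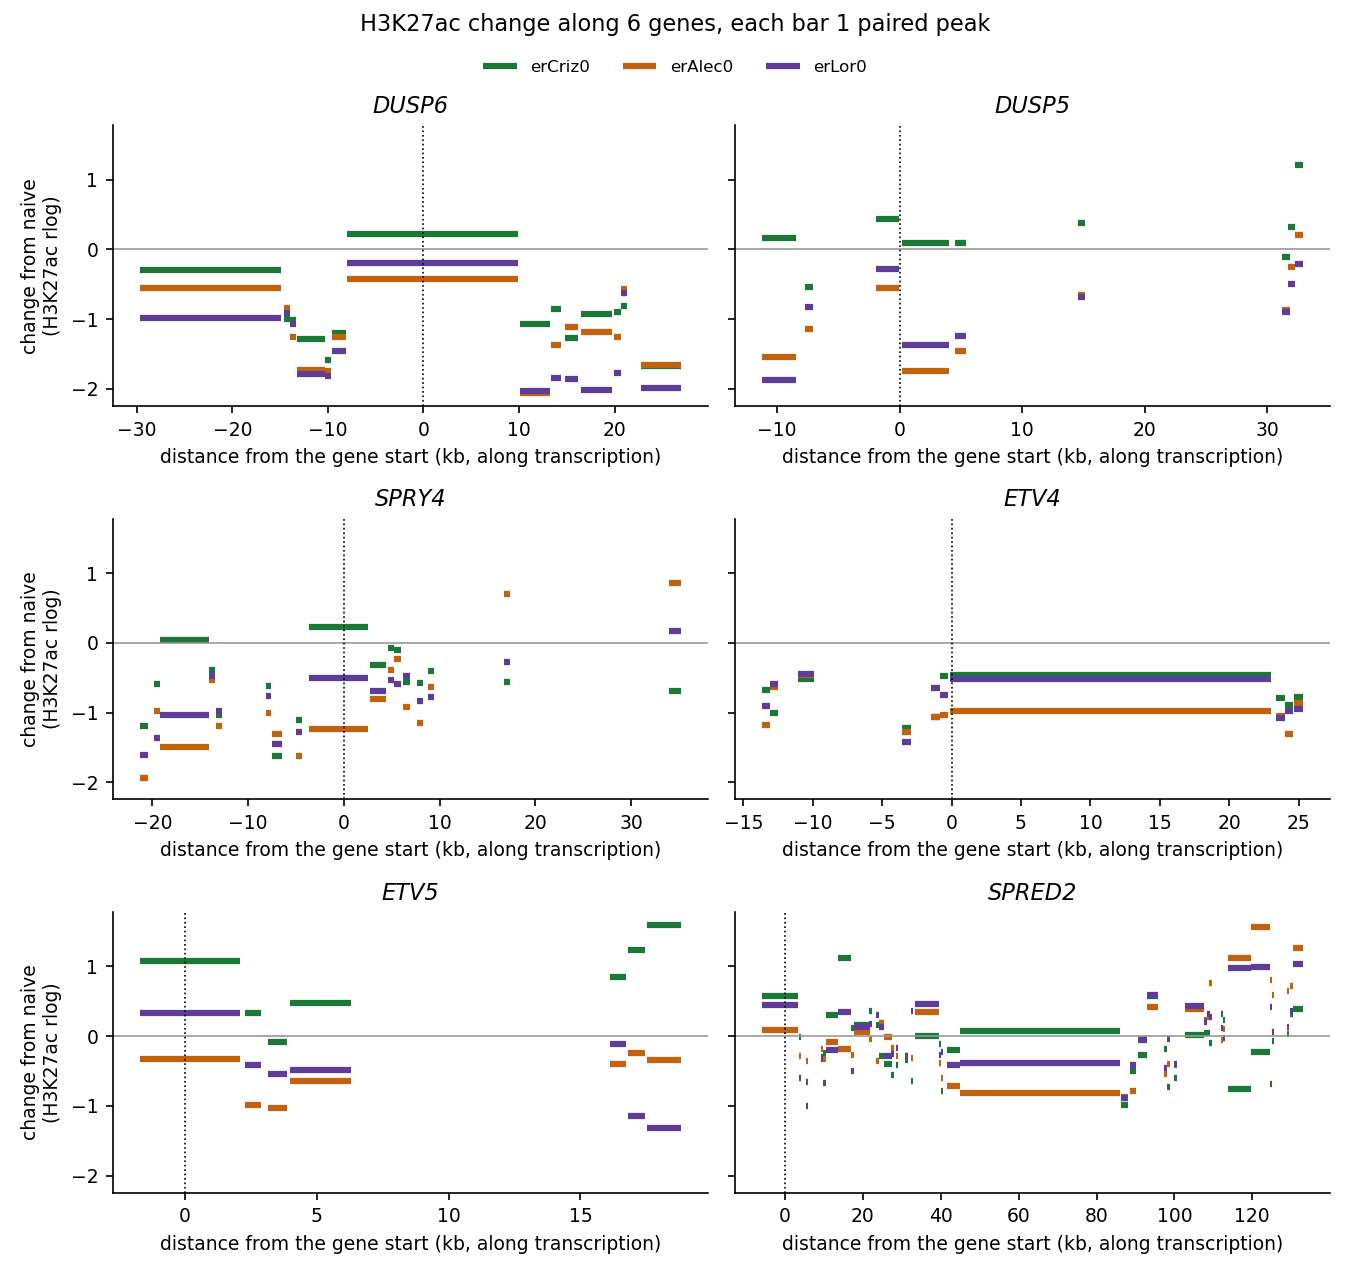
H3K27ac change from naive (rlog, vertical axis) of each paired peak against its distance from the gene start in kb along the direction of transcription (horizontal axis) at DUSP6, DUSP5, SPRY4, ETV4, ETV5 and SPRED2, each bar spanning 1 peak and coloured by line, with the shortest peaks widened so that they can be seen. The start peak of DUSP6 lies between -0.42 and 0.22, with flanks that reach -2.06. At the downstream end of SPRED2 erAlec0 reaches 1.57 at a peak where erCriz0 lies below 0.

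SPRY4 had 17 peaks with medians of -0.56, -0.98 and -0.77 in erCriz0, erAlec0 and erLor0, of which 4, 8 and 5 fell and none rose. Its start peak (chr5:142322542-142328640) was at 10.58 in naive cells, 10.81 in erCriz0, 9.34 in erAlec0 and 10.09 in erLor0. No start peak of the other genes fell, and this one did in erAlec0, at -1.24. For DUSP5 this rests on the choice of the nearest peak, which ends 63 bp before the start. The DUSP5 peak that begins 187 bp past the start fell by -1.75 in erAlec0 and -1.37 in erLor0. Upstream, within SPRY4-AS1, the peak at chr5:142345446-142346329 was at 5.21, 4.02, 3.26 and 3.60 in the same order and fell in each resistant line. The peak at chr5:142331477-142332504 held the lowest change of erCriz0 at this gene, -1.62, with -1.31 and -1.44 in the other lines. The most distal peak downstream, at chr5:142289858-142291114, differed by -0.69, 0.85 and 0.17. The surrounding 626 peaks had medians of 0.04, -0.32 and -0.17.

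SPRY1 and SPRY2 had fewer peaks. The 7 peaks of SPRY1 had medians of 0.47 in erCriz0, -0.79 in erAlec0 and -0.65 in erLor0. The broad element downstream of SPRY1 at chr4:123413560-123422366 was at 10.10 in naive cells, 10.37 in erCriz0, 8.90 in erAlec0 and 9.10 in erLor0, so that, as at DUSP5, erCriz0 stayed with naive cells. The start peak of SPRY1 differed by 0.51, 0.19 and 0.21. The 5 peaks of SPRY2 had medians of -0.35, -0.22 and -0.54, with 1 fall in erCriz0, of -1.22 at chr13:80360472-80360877, and 1 in erLor0, of -1.12 at chr13:80344529-80344899.

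The Spred genes stood at opposite ends of the count of peaks. SPRED1 had 6, with medians of -0.30, -0.47 and -0.63, and its upstream peak at chr15:38243628-38243915 fell in each line, with changes of -1.22, -1.22 and -1.10. That peak was weak, at 2.68 in naive cells, below the level of log2(15), or 3.91, used as a minimum for peaks. SPRED2 had 42 peaks, the most of the 10 genes, with medians of -0.10, -0.07 and 0.02. In erAlec0 it held all 3 rises of the group, at the downstream end of the gene. The peak over its last exon at chr2:65308094-65312794 was at 8.02 in naive cells, 7.79 in erCriz0, 9.58 in erAlec0 and 9.01 in erLor0. The peak beyond it at chr2:65299634-65302105 was at 6.56, 6.95, 7.83 and 7.59, and its change of 1.03 was the only rise of the group in erLor0. In erCriz0 the rise of SPRED2 was at another place, inside the gene at chr2:65415775-65418896, by 1.13. Its lowest changes were -0.98 in erCriz0 and -0.88 in erAlec0 at chr2:65344466-65346313. In erLor0 the lowest was at chr2:65426807-65427036, just past the limit, from 3.60 in naive cells to 2.60. This peak too was weak, below the minimum of 3.91 in every library.

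The 2 ETS factors differed in acetylation. All 10 peaks of ETV4 were below naive in all 3 lines, with medians of -0.78, -1.04 and -0.83 and with 3, 6 and 2 that fell. A peak of 23156 bp over the gene (chr17:43523331-43546486) was at 11.75 in naive cells, 11.29 in erCriz0, 10.77 in erAlec0 and 11.23 in erLor0. The peak at chr17:43549235-43549937 fell in each line, with changes of -1.22, -1.28 and -1.43. Every ETV4 peak is also paired with DHX8, so the values belong to both genes. ETV5 was the one gene with rises in erCriz0 at 3 of its 7 peaks, and its median there, 0.85, was matched or undercut by 8579 of the 8758 genes. In erAlec0 and erLor0 its medians were -0.40 and -0.49. Its start peak (chr3:186106995-186110794) was at 7.44 in naive cells, 8.52 in erCriz0, 7.11 in erAlec0 and 7.78 in erLor0, while its RNA in erCriz0 was 0.22 lower than in naive cells.

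An intronic ETV5 peak 18.2 kb into the gene (chr3:186090294-186091552) went in opposite directions in 2 lines. It was at 4.24 in naive cells, 5.84 in erCriz0, 3.90 in erAlec0 and 2.93 in erLor0, so erCriz0 was above and erLor0 below the other two. The neighbouring peak at chr3:186091660-186092286 did the same, at 3.43, 4.67, 3.19 and 2.29. This neighbour reached the peak minimum of log2(15), or 3.91, in erCriz0 only, so its fall in erLor0 lay wholly below that minimum. The peak at chr3:186090294-186091552 was below the minimum in erAlec0 and erLor0. Its centre (chr3:186090773-186091072, plus strand, hg38) is shown because of the opposite directions, and it holds none of the 3 motifs.
ETV5 intronic peak: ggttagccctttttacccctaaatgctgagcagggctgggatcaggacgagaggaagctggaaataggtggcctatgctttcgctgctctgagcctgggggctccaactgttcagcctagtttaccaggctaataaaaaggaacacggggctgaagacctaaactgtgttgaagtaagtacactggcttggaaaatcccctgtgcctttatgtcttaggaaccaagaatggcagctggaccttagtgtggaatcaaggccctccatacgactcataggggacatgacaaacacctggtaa

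DUSP4, with 12 peaks, had no peak past the limit in any line. Its medians were -0.33, -0.59 and -0.52, its values ran from -0.99 to 0.59 in erCriz0, from -0.90 to 0.61 in erAlec0 and from -0.87 to 0.75 in erLor0, and its start peak differed by 0.57, 0.00 and 0.41.

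Peaks at gene starts and peaks elsewhere differed across the group. The start peak, taken as the peak over or nearest to the canonical start, had median changes of 0.41, -0.17 and 0.24 in erCriz0, erAlec0 and erLor0 over the 10 genes, while the other 119 peaks had medians of -0.34, -0.57 and -0.58. The start peak lay above the median of the gene's own other peaks in 10, 9 and 10 of the 10 members. The same order was common in these libraries: over 8091 expressed protein-coding genes the start peaks had medians of 0.33, 0.25 and 0.41 and the other peaks -0.09, -0.11 and -0.04, and the start was above the others in 82.0%, 72.5% and 82.3% of genes. The members' other peaks were lower than those of all genes in each line, and their start peaks were lower than those of all genes in erAlec0 and erLor0. By place, 48 of the 129 peaks lay within introns of the member, 27 overlapped one of its exons and 54 lay outside the gene.

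Other genes of the pathway were read from lists built by function but chosen with earlier results of these data known. Their counts and medians are therefore a description and not independent support. In the cascade from the receptor to ERK and its kinase targets, all 20 genes were expressed, 1 rose in each line and none fell. Of all expressed genes 2.65%, 2.46% and 1.10% rose in erCriz0, erAlec0 and erLor0, and 1.65%, 2.07% and 0.740% fell. In erCriz0 and erAlec0 the gene that rose was ALK, the kinase of the fusion, at 8.18 in naive cells, 10.65 in erCriz0, 9.58 in erAlec0 and 8.10 in erLor0. The one of erLor0 was NRAS, a RAS protein upstream of RAF, at 10.24, 10.40, 10.20 and 11.72. The medians of the list were 0.09, 0.21 and 0.08.

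Of 17 other negative regulators 16 had values and 14 were expressed. There were 1, 1 and 0 rises in erCriz0, erAlec0 and erLor0, where 2.65%, 2.46% and 1.10% of expressed genes rose. None fell, where 1.65%, 2.07% and 0.740% of expressed genes did. The medians of the list were 0.06, 0.42 and 0.26. SPRED3, the third Spred gene, rose in erCriz0, at 7.81 in naive cells, 9.69 in erCriz0, 8.77 in erAlec0 and 8.16 in erLor0. ERRFI1, which encodes an inhibitor of EGFR family kinases, rose in erAlec0, at 12.24, 11.93, 13.26 and 12.86 in the same order. SPRY3 was listed at 0 in all 4 libraries.

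Of 19 other output genes 18 were expressed, with 1, 4 and 1 rises and with 1 fall, in erLor0. Of all expressed genes 2.65%, 2.46% and 1.10% rose in erCriz0, erAlec0 and erLor0, and 1.65%, 2.07% and 0.740% fell. The medians of the list were -0.07, 0.51 and 0.31. ETV1, the third PEA3 factor, rose in erCriz0, at 8.91 in naive cells, 10.64 in erCriz0, 9.30 in erAlec0 and 8.56 in erLor0, so erCriz0 was low for ETV4 and high for ETV1. The 4 rises of erAlec0 were those of the ephrin receptors EPHA2, from 10.55 in naive cells to 12.05, and EPHA4, with a change of 1.37, and of the EGFR ligands HBEGF (1.37) and AREG (1.41). In erLor0 EPHA4 rose by 1.13 and the EGFR ligand gene EREG fell by 1.29, from 5.91 to 4.62. The erAlec0 line had the most rises of this list. In the same libraries the 6 expressed lung epithelial markers were all above naive in erAlec0 and erLor0, with medians of 0.32 and 0.17, and their part in the medians of this list was not tested.

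The expressed genes whose changes in the 3 lines were most like those of DUSP5, the member with the largest RNA change, were named by Euclidean distance among 12700 genes. They were STEAP1 at a distance of 0.15, STK32A at 0.17, WSB1 at 0.20, CELF2 at 0.21 and TAOK3 at 0.21. Their changes lay between 0.43 and 0.65 in erCriz0, between 1.27 and 1.60 in erAlec0 and between 0.78 and 0.93 in erLor0, and the likeness covers 3 differences that share 1 naive library.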

How the data were processed

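Values of 1 RNA library and 1 H3K27ac ChIP library of each of naive H3122, erCriz0, erAlec0 and erLor0 cells were examined. The other 4 samples of the series, erCriz1, erLor1, a sample treated with lorlatinib and pooled input DNA, have no mapped column and were not analysed here. The values that the authors deposited are log2 values, made with the rlog function of DESeq2 over the 4 libraries, 1 row per pair of a gene and a peak at most 20 kb apart. RNA reads had been aligned with HISAT2 (hg38) and assigned to genes by HTSeq-count. ChIP reads had been aligned with BWA, MACS2 peaks of 4 samples merged and cleared of blacklisted intervals, and featureCounts used for the read numbers. Versions of these tools and a subtraction of input are not given in the sources used here. Deposited correlations with p-values were not used.

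Changes were differences of rlog from naive, with the limit of 1 and the minimums of 25 and 15 reads taken from the study's methods. Read totals cannot be recovered from rlog, so the depth of the libraries is unknown and counting error could not be computed. Members, lists and alternatives were chosen with earlier results of these data known. All 10 members were named in every library, with the start peak and the paired peaks of largest rise and fall, every list gene with an RNA change of at least 1 in any line, and the 5 genes most like the member of largest change. Peaks were placed by GENCODE 44. Promoters came from RefSeq (GRCh38.p14), which matched 6 of 10 members, and peak sequence from the hg38 reference. Scripts ran on Python 3.11.15 with numpy 2.4.6, pandas 2.3.3 and matplotlib 3.10.9 and were tested on simulated data. Alternatives were other limits, distances, centrings and scalings, and leaving out genes. Some items of the lists and sequences are not reported here.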

Additional observations from a re-analysis of the deposited data

Results flagged for a closer look

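Neighbouring intronic peaks of ETV5 differed between lines in direction. The peak at chr3:186090294-186091552 was above naive in erCriz0, by 1.60, and below naive in erLor0, by a change of -1.31. The peak at chr3:186091660-186092286 was above naive in erCriz0, by 1.24, and below naive in erLor0, by a change of -1.14. This second peak was below the peak minimum of log2(15), or 3.91, in naive and erLor0 cells, at 3.43 and 2.29. The first peak was below that minimum in erLor0, at 2.93. Each line has 1 library, so the difference between the lines was not tested.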

How the results depend on the processing

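The median change of the paired peaks was below 0 in all 33 values recomputed under an alternative. No median examined here was past the limit of 1, so a reversal of a change past the limit could not occur. Of 120 values, 77 stayed within 0.1 or, for counts, within 1.5 times. The median RNA change in erCriz0, -0.03, changed sign within that range, to 0.03 after centring and to between -0.12 and 0.06 when 1 gene was left out. The others are given in the order erCriz0, erAlec0, erLor0 where 3 stand together. With a limit of 1.5-fold for RNA, 1 member rose and 2 fell in erCriz0 and 2 rose in erLor0, and with a limit of 2 none (0) rose in erAlec0. The peak median was -0.14, -0.37 and -0.42 with peaks at most 5 kb from the gene, and -0.13, -0.051 and -0.048 with peaks paired with exactly 1 gene. It was -0.69 in erAlec0 and -0.64 in erLor0 with 1 value per gene, and -0.43 in erLor0 after centring each library. Leaving out the peaks of 1 gene at a time moved it at most to -0.40, -0.81 and -0.73, all without SPRED2, and to -0.42 in erAlec0. Peaks that rose numbered 8, 11 and 5 with a limit of 1.5-fold and 0, 0 and 0 with a limit of 2. They numbered 3 in erCriz0 and 0 in erLor0 after quantile scaling, 3 in erLor0 after centring, 0 in erLor0 after removal of a level trend in 50 bins, 0 in erLor0 within 5 kb, and 0 in erAlec0 and 0 in erLor0 without SPRED2. Peaks that fell numbered 41, 60 and 59 with a limit of 1.5-fold, 0, 1 and 2 with a limit of 2, and 5, 13 and 10 within 5 kb, and 11 in erCriz0 after centring. The cause of these shifts was not tested. The removal of the trend and the values without SPRED2 were chosen after seeing the data. No paired analysis was possible because each line has 1 library, and no replicate could be left out.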
